A study of Mus musculus with 9 samples.

Results

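Id1, Id2, Id3, Id4, Atoh8, Smad6, Bmp4, Grem1 and Bmper are genes of bone morphogenetic protein (BMP) signalling, and 8 of these 9 had a row in a table of 11931 genes. They were chosen by gene name, with the levels of these same 9 libraries in the 3 culture groups already known. Their differences between groups are therefore given as descriptions, without p-values. Bmp4 had no row in the table, so its level was not analysed here and it enters only the promoter search. All 8 others passed the filter on low values, which asked for 5 or more normalised counts in 3 or more libraries and left 10639 genes. Id4 reached that value in only 2 co-culture libraries, so it passed through the monocultures, where it was high.

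The cells were normal mammary fibroblasts (NMF) of BALB/c mice, taken from the fat pads of females aged 12 weeks and left for 1 week on collagen before plating. In each well 300000 fibroblasts were plated, and 24 h later, for the co-cultures, 100000 cells of 4T1-GFP were added, a BALB/c mammary carcinoma line that carries green fluorescent protein. The 3 groups, of 3 libraries each, were monoculture for 5 days, co-culture with 4T1 cells for 3 days and co-culture for 5 days. Cells without green fluorescence and with podoplanin on their surface were sorted, and the 3′ ends of their mRNA were sequenced. Values are normalised read counts. The labels do not say whether the 3 repetitions came from separate animals or cultures, so p-values measure only the spread between these libraries, which may be technical. No monoculture was sampled at 3 days, and in the 3-day comparison co-culture and days in culture cannot be told apart.

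BMPs are secreted ligands that bind pairs of serine/threonine kinase receptors. The receptors phosphorylate Smad1, Smad5 and Smad9, which enter the nucleus with Smad4 and switch on target genes. Id genes are classic targets. They encode helix-loop-helix proteins without a DNA-binding region, which bind E proteins such as Tcf3, Tcf4 and Tcf12 and keep them from DNA. Smad6 is another target and blocks the receptors in a feedback loop, and Atoh8 encodes a basic helix-loop-helix transcription factor that BMP receptors induce in several cell types. Outside the cell, secreted proteins such as gremlin 1 and chordin trap the ligands, and Bmper encodes a chordin-like modulator that binds BMPs.

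In fibroblasts sorted from co-culture, the 4 Id genes, Atoh8 and Smad6 were lower than in monoculture at both times, and no library of either co-culture reached the lowest monoculture. Id4 and Atoh8 stood lowest relative to monoculture, followed by Id1, Smad6, Id2 and Id3 at 5 days. Grem1 and Bmper overlapped between the groups. A gene is called here where limma, fitted over all tested genes, gave a Benjamini-Hochberg adjusted p below 0.05. The fit called 6 of the 8 lower at 3 days and 6 of 8 at 5 days, and 0 higher, against 9.37% of all tested genes called lower and 10.6% called higher at 3 days, and 11.4% lower and 12.6% higher at 5 days. The same 6 did not overlap with monoculture, as 18.1% of tested genes did not on the lower side at 3 days and 20.1% at 5 days. These values were in view when the genes were chosen, so nothing is read from the counts. The 2 comparisons share the monoculture libraries.

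Reads recovered per library numbered 1048471 to 3567326, with a mean of 2966627 in monoculture and of 1632228 and 1806567 in the co-cultures. Epithelial and carcinoma markers moved with the co-cultures. Of 15 tested, 14 were higher and 0 lower at each time, and the summed level of the 16 with a row was 57.3 to 84.0 in monoculture, 1136.1 to 1305.0 at 3 days and 1117.8 to 1565.4 at 5 days. Cldn3 and Elf3 were at 0 in monoculture, and the highest members, Wfdc2 and Krt18, had means of 3.00 and 27.5 in monoculture and 441 and 287 at 5 days. Of 12 fibroblast markers 6 were lower at 3 days, and 7 lower and 1 higher at 5 days. Their summed level overlapped, from 46284.1 to 63830.4 in monoculture, 44367.9 to 55605.3 at 3 days and 39541.5 to 53717.5 at 5 days, and their highest members, Col1a1 and Col1a2, had means of 19220 and 12280 in monoculture and 20913 and 10471 at 5 days. These collagens make up much of the sum. Among the 7 that were lower at 5 days, Pdgfra had means of 189 in monoculture and 21.0 at 5 days, S100a4 of 3605 and 476, Thy1 of 2588 and 931, Dcn of 3469 and 1316, and Fbln1 of 53.1 and 0.9, and the 1 that was higher was Vim. Both tested basal markers, Sfn and Krt14, were higher at each time, with sums over 3 genes of 2.5 to 11 in monoculture and 39.6 to 66.4 in co-culture. Oxtr, the other gene in these sums, was not tested and went the other way, from a mean of 2.4 in monoculture to 0 in both co-cultures. Krt5, Krt17 and Trp63 had no row. Both adipocyte markers with a row, Fabp4 and Pparg, were lower at each time, with sums of 102.8 to 157.2 in monoculture, 10.0 to 25.1 at 3 days and 13.5 to 18.7 at 5 days. Of 5 tested pericyte or smooth muscle markers, 2 were higher at 3 days (Cspg4 and Des) and 1 at 5 days (Cspg4). Notch3, with Cspg4 the highest of them, was not called. Their list had sums of 61.1 to 134.3 in monoculture, 186.4 to 274.0 at 3 days and 206.8 to 257.9 at 5 days. Esam, 1 of the 2 endothelial markers with a row beside Kdr, was higher at each time, with sums of at most 31.5, and Pecam1, Cdh5, Tek and Tie1 had no row. Of 9 listed leukocyte markers, Ptprc, Adgre1, Cd74, Cd3e, Cd79a and Itgam had no row. Of the 3 with a row, led by Lyz2 and Cd68, only Csf1r was called against monoculture, lower at 5 days. The lymphatic marker Flt4 was not called, and Lyve1, Prox1 and Ccl21a had no row. The part of these cells in the values of the Id genes, Atoh8 and Smad6 was not tested. Nor was it tested for the other pathway genes, among them Smurf2, Bmpr2, Acvr1 and Fstl3, which were higher in co-culture at 5 days. In bulk samples fewer cells of a type and less RNA per cell cannot be told apart. The part of the lower fibroblast markers was not tested either. The column taken as 5-day co-culture replicate 2 names no 4T1 cells. Without it the 6 genes Id1, Id2, Id3, Id4, Atoh8 and Smad6 were called lower at 5 days, from -0.95 for Id3 to -6.22 for Id4 on the log2 scale. The column taken as monoculture replicate 3 has a shortened name, and without it the same 6 genes were called lower at both times, from -0.94 for Id3 to -6.14 for Id4 at 5 days. The 6 genes were chosen with the values of these libraries in view. Both refits therefore describe the values only, and whether the 2 columns were assigned rightly was not tested.

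Id1 counts, normalised for depth as all values here, were 1341.2, 1535.8 and 1731.5 in monoculture. With 4T1 cells they were 156.1, 172.6 and 187.8 at 3 days and 195.0, 141.6 and 163.5 at 5 days. The monoculture mean was 1536 ± 195 (SD, n = 3) and the co-culture means were 172 ± 15.9 and 167 ± 26.8. Id1 therefore lay at 11.2% of the monoculture mean at 3 days and at 10.9% at 5 days. On the scale of log2(value + 1), the difference from monoculture was -3.15 ± 0.18 (SE) at 3 days and -3.20 ± 0.18 at 5 days. The co-cultures overlapped with each other, and their difference of -0.05 turned to 0.01 without 3-day co-culture replicate 3 and to 0.06 without 5-day co-culture replicate 2. Id1 lies on chromosome 2 (152736251 to 152737410, plus strand, mm10).

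Id3 had counts of 4261.2, 4366.0 and 3991.3 in monoculture, 1388.3, 1826.6 and 1893.5 at 3 days and 2629.0, 2403.0 and 1790.3 at 5 days. Its monocultures were close together, with a coefficient of variation of 4.6%. The co-cultures stood at 40.5% and 54.1% of the monoculture mean, a difference of -1.32 ± 0.19 and -0.90 ± 0.19 on the log2 scale. Id3 was the only one of the 6 with a higher mean at 5 than at 3 days, but the groups overlapped and the difference of 0.41 (95% interval 0.00 to 0.82) was not called. The gene lies on chromosome 4 (136143497 to 136145755, plus strand).

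Id2, which in many cell types also answers to signals other than BMPs, had counts of 121.3, 146.6 and 165.2 in monoculture, 68.1, 57.1 and 69.6 at 3 days and 43.1, 53.1 and 27.5 at 5 days. Each 5-day library was below each 3-day library. The differences from monoculture were -1.13 ± 0.24 and -1.82 ± 0.24 on the log2 scale, and that between the co-cultures was -0.69 ± 0.24 (95% interval -1.20 to -0.17), which was not called. Id2 lies on chromosome 12 (25093799 to 25097140, minus strand).

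Id4, on chromosome 13 (48261228 to 48266026, plus strand), had counts of 112.0, 175.9 and 96.4 in monoculture, 5.0, 4.2 and 7.0 at 3 days and 1.8, 1.9 and 0 at 5 days. Few reads stand behind the co-culture values, 14 at 3 days and 4 at 5 days, against 697 in the monocultures. The ratio of monoculture to co-culture, scaled for depth, was 26.1 at 3 days (exact Clopper-Pearson 95% interval 15.5 to 48.1, counting error only) and 99.1 at 5 days (38.5 to 365). Between the co-cultures the ratio of 3 to 5 days was 3.79 (1.19 to 15.8). On the log2(value + 1) scale, which compresses such low values, the differences were -4.31 ± 0.44, -5.96 ± 0.44 and, for 5 against 3 days, -1.65 ± 0.44. Id4 was the only 1 of the 8 called between the co-cultures, lower at 5 days, beside 3.71% of all genes called lower and 3.2% called higher. The call of Id4 was lost without monoculture replicate 3 (-1.65), without 3-day co-culture replicate 1 (-1.68), 2 (-1.79) or 3 (-1.47), without 5-day co-culture replicate 3 (-1.14), with a pseudocount of 5 (-0.74), in a fit of the compared groups alone (-1.65) and in edgeR (-1.87) and DESeq2 (-1.95). Annotated transcripts overlap Id4 on the opposite strand, and since the strand setting of the counting is not given in the sources used here, their reads cannot be told apart from those of Id4.

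**Figure D1:**
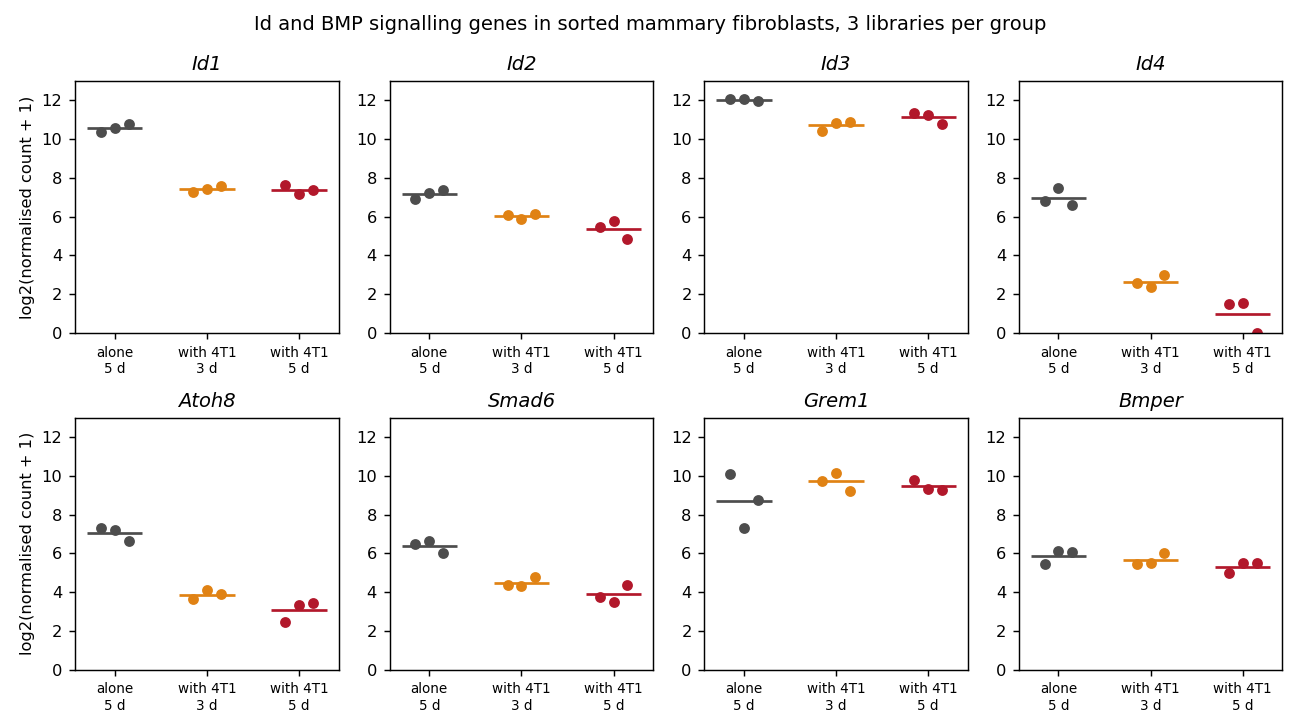
Levels of the 8 genes in each library, as log2(normalised count + 1) on the vertical axis, for fibroblasts alone for 5 days (grey), with 4T1 cells for 3 days (orange) and for 5 days (red). Points are libraries and lines are group means. For the Id genes, Atoh8 and Smad6 every co-culture point lies below every monoculture point, whereas Grem1 and Bmper overlap.

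Atoh8 had counts of 160.3, 149.5 and 97.7 in monoculture, 11.6, 16.0 and 13.9 at 3 days and 4.5, 9.3 and 10.0 at 5 days. The co-cultures stood at 10.2% and 5.84% of the monoculture mean. All 5-day libraries were below all 3-day libraries. The log2 differences were -3.18 ± 0.32 and -3.97 ± 0.32 against monoculture, and -0.79 ± 0.32 between the co-cultures, which was not called. Reads numbered 722 in the monocultures, 40 at 3 days and 23 at 5 days. Atoh8 lies on chromosome 6 (72206177 to 72235577, minus strand).

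Smad6, the inhibitory Smad most closely tied to BMP receptors, had counts of 87.3, 97.1 and 63.6 in monoculture, 19.9, 18.8 and 26.4 at 3 days and 12.6, 10.2 and 20.0 at 5 days. It stood at 26.3% and 17.3% of the monoculture mean, with log2 differences of -1.88 ± 0.29 and -2.48 ± 0.29. The co-cultures overlapped with each other. Smad6 lies on chromosome 9 (63953076 to 64022059, minus strand).

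Grem1, which encodes the secreted BMP antagonist gremlin 1, had counts of 1080.6, 155.7 and 428.1 in monoculture, 866.8, 1143.0 and 599.6 at 3 days and 892.2, 628.7 and 615.5 at 5 days. Its monocultures spread almost over the whole range of the 9 libraries, with a coefficient of variation of 85.7%, against 31.2% and 21.9% in the co-cultures. The log2 differences of 1.01 ± 0.46 (95% interval 0.04 to 1.99) at 3 days and 0.75 ± 0.46 (-0.22 to 1.72) at 5 days were not called. Both depend on single monocultures. Without replicate 1, the highest, they were 1.7 and 1.44 and were called, and without replicate 2, the lowest, they were 0.31 and 0.04. Without 5-day co-culture replicate 1 the 5-day value was 0.58, and in edgeR the values were 0.64 and 0.35. Grem1 lies on chromosome 2 (113746164 to 113758646, minus strand).

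Bmper had counts of 42.7, 69.7 and 66.2 in monoculture, 43.2, 45.2 and 64.0 at 3 days and 30.5, 43.8 and 43.7 at 5 days. The groups overlapped in both comparisons with monoculture. Its log2 differences were -0.22 ± 0.26 (95% interval -0.77 to 0.34) and -0.57 ± 0.26 (-1.13 to -0.02), neither of them called. Bmper lies on chromosome 9 (23223076 to 23485200, plus strand).

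**Figure D2:**
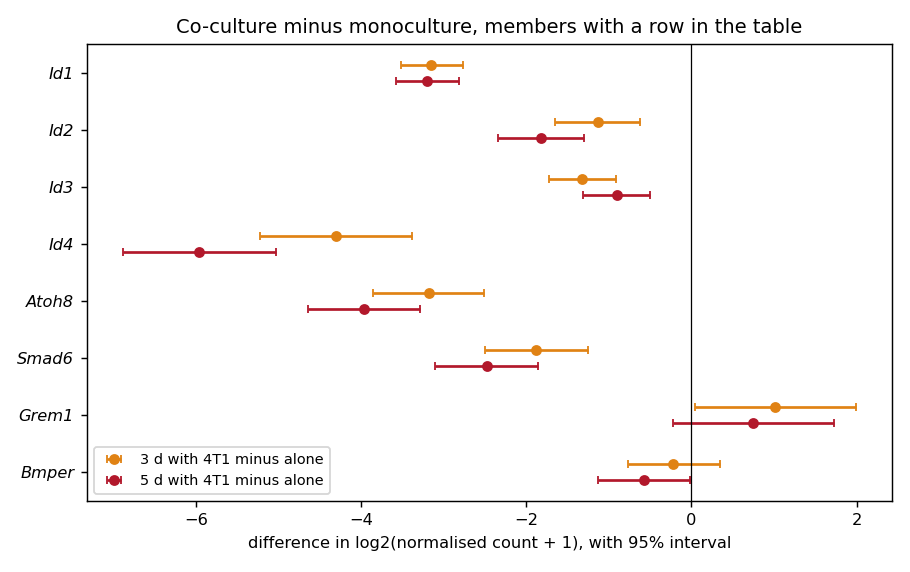
Difference between co-culture and monoculture for the 8 genes, in log2(normalised count + 1) with 95% intervals from the limma fit, for 3 days (orange) and 5 days (red), n = 3 libraries per group. The Id genes, Atoh8 and Smad6 lie left of 0, from -0.90 for Id3 to -5.96 for Id4 at 5 days, and the points of Grem1 lie right of it.

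The Id genes did not fall by equal amounts. Within a library, the log2 value of Id1 minus that of Id3 was -1.67, -1.51 and -1.20 in the monocultures, -3.14, -3.40 and -3.33 at 3 days and -3.75, -4.08 and -3.44 at 5 days. Every co-culture library was thus below every monoculture, and a scaling factor of the library cancels out of this difference, apart from the added 1. For Id4 minus Id3 the group means were -5.07 ± 0.39 (SD, n = 3), -8.07 ± 0.34 and -10.13 ± 0.60, without overlap between any of the groups. Id2 kept its distance from Id3 at 3 days, at -4.68 ± 0.33 against -4.87 ± 0.27 in monoculture with overlap, and stood at -5.78 ± 0.27 at 5 days, where all 3 libraries were below all others.

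**Figure D3:**
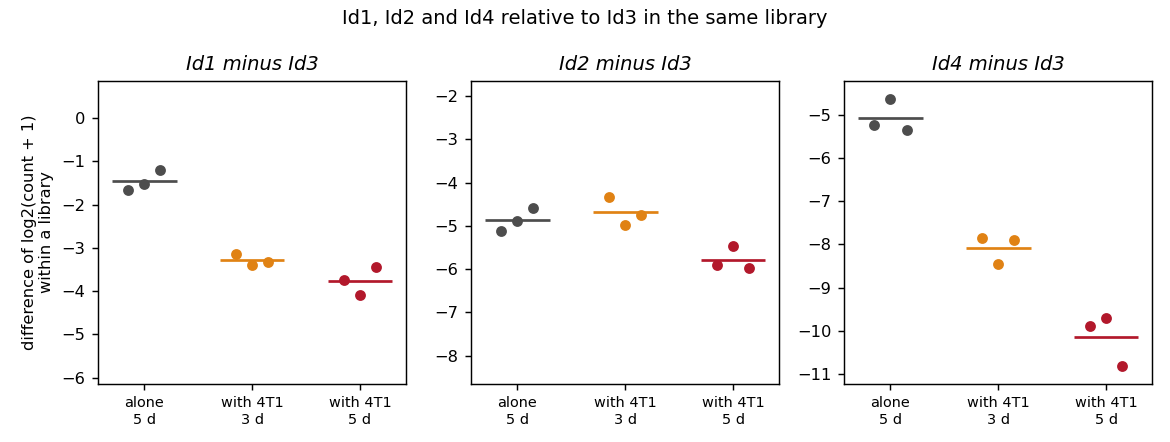
Difference of log2(normalised count + 1) between Id1, Id2 or Id4 and Id3 in the same library, with the culture groups on the horizontal axis, points for libraries, lines for group means and the same span on each vertical axis. Id1 and Id4 lie lower against Id3 in both co-cultures, and Id2 does so at 5 days only.

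The stretches upstream of the genes were searched for GC-rich words in which BMP-regulated Smads are known to bind, GGCGCC and GGAGCC, on both strands. RefSeq promoters on GRCm38.p6 (the assembly of mm10) gave an entry for 8 of the 9 genes, all but Id1, and the 250 bases before each start were read. GGCGCC was in 3 of the 8 windows (Id2, Id4 and Grem1) and GGAGCC in 6 (Id2, Id3, Id4, Smad6, Bmp4 and Bmper), against 9.59% and 26.0% of all 32851 windows of the same length. These counts mix genes that were lower in co-culture (Id2, Id3, Id4, Atoh8 and Smad6) with Grem1 and Bmper, which were not called, and Bmp4, whose level was not analysed. The G and C content of all windows was not measured, so nothing is read from these counts. The windows of the 8 genes were 62.8% to 75.6% G and C. Below are those of 3 genes that were lower in co-culture and that of Grem1, which was not, 5′ to 3′ on the gene's strand, with matches in capitals. The windows of Id2 and Id3 lie inside the gene spans given above, so they are not upstream of the whole gene. They overlap annotated exons and are not shown.
Id4 (chr13:48260866-48261115, plus strand): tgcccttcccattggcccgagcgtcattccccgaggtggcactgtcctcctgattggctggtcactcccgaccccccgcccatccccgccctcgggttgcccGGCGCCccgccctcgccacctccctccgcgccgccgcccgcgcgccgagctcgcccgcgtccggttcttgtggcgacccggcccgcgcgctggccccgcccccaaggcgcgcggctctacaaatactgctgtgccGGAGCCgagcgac
Smad6 (chr9:64022060-64022309, minus strand): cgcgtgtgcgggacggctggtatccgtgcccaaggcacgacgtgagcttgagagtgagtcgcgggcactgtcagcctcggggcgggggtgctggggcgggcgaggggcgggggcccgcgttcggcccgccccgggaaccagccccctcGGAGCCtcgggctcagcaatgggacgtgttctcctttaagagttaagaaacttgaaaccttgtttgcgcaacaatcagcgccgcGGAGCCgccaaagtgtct
Atoh8 (chr6:72235578-72235827, minus strand): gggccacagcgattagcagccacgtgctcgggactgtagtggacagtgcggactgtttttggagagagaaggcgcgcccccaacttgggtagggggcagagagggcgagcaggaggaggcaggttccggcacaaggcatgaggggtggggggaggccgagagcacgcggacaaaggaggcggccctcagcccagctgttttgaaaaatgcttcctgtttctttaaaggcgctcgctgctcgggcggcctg
Grem1 (chr2:113758649-113758898, minus strand): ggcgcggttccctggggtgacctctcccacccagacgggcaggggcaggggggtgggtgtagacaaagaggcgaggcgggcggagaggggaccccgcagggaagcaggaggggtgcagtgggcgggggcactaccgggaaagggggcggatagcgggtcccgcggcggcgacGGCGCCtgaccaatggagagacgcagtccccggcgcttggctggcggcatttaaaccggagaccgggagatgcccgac

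In these windows GGCGCC began 148 bases before the RefSeq start of Id4 and 78 bases before that of Grem1. For Id4 and Grem1 the RefSeq start lies upstream of the gene span given above. GGAGCC began 13 bases before the RefSeq start of Id4 and 102 and 18 bases before that of Smad6, and neither word was in the window of Atoh8. A match is a description of the letters, and these data do not measure binding.

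Of the other genes of the pathway, 53 were listed by role, 32 had a row and 30 were tested. At 3 days 1 was called higher and 7 lower, or 3.33% and 23.3%, and at 5 days 4 and 7, or 13.3% and 23.3%. Over all tested genes 10.6% were called higher and 9.37% lower at 3 days, and 12.6% and 11.4% at 5 days, so the share called higher at 5 days was near that of all genes. Their median log2 difference was -0.23 and -0.17, beside 0.00 and -0.01 over all tested genes. Between the co-cultures 1 was called higher and 1 lower, or 3.33% each, near the 3.2% and 3.71% of all genes. These lists were also drawn up with earlier results of these data known. Nothing is therefore read from the shares and medians, and the adjusted p-values of limma given below are descriptions. The 2 ligand genes Gdf6 and Gdf10, the receptor gene Bmpr1a and the antagonist gene Chrd were called lower at both times. So were the co-receptor genes Tgfbr3 and Rgma, whereas the ubiquitin ligase gene Smurf2 was called higher at both. Nbl1 was called lower at 3 days only and Fstl1 at 5 days only. Bmpr2, Acvr1 and Fstl3 were called higher at 5 days only.

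Among ligands, 3 of 14 listed genes had a row. Gdf10, a BMP-related ligand also called BMP3B, had 101.5, 158.1 and 157.5 in monoculture, 8.3, 23.0 and 23.7 at 3 days and 9.9, 20.5 and 10.0 at 5 days, log2 differences of -2.96 ± 0.38 (adjusted p = 4.7e-05) and -3.32 ± 0.38 (adjusted p = 9e-06). Gdf6, also called BMP13, went from a mean of 82.7 to 31.9 and 27.0, at -1.36 ± 0.31 (adjusted p = 0.005) and -1.61 ± 0.31 (adjusted p = 0.0011). Bmp8a had means of 1.93, 7.07 and 3.47 and was not called.

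Of 10 tested receptors and co-receptors, 3 were lower and 0 higher at 3 days, and 3 were lower and 2 higher at 5 days. Of all tested genes 9.37% were lower and 10.6% higher at 3 days, and 11.4% and 12.6% at 5 days. With so few genes nothing is read from these counts. Tgfbr3, which encodes betaglycan, a co-receptor for transforming growth factor beta, inhibin and some BMPs, had 416.5, 475.9 and 398.5 in monoculture, 126.2, 178.2 and 168.3 at 3 days and 42.2, 62.4 and 37.5 at 5 days. None of its groups overlapped, with log2 differences of -1.46 ± 0.22 (adjusted p = 0.00017), -3.19 ± 0.22 (adjusted p = 3.7e-08) and, for 5 against 3 days, -1.73 ± 0.22 (adjusted p = 0.00018). Rgma, a BMP co-receptor, was lower at both times, at -0.81 ± 0.23 (adjusted p = 0.019) and -1.13 ± 0.23 (adjusted p = 0.0018). So was the type I receptor gene Bmpr1a, with means of 106, 57.2 and 65.5 (log2 difference -0.88, adjusted p = 0.011, and -0.71, adjusted p = 0.031). At 5 days the type II receptor gene Bmpr2 was higher, with 14.4, 31.7 and 22.5 against 1.9, 6.2 and 3.9 (2.28 ± 0.47, adjusted p = 0.0022), as was the type I receptor gene Acvr1, at 0.62 ± 0.19 (adjusted p = 0.022). Some of these calls rest on single libraries. At 3 days that of Rgma was lost without monoculture replicate 3 (-0.62) or 3-day replicate 3 (-0.74), and that of Bmpr1a without monoculture replicate 3 (-0.82) or 3-day replicate 2 (-0.80). At 5 days that of Bmpr1a was lost without monoculture replicate 2 (-0.67) or 3 (-0.65) or 5-day replicate 1 (-0.50), and that of Acvr1 without monoculture replicate 1 (0.61) or 3 (0.62) or 5-day replicate 1 (0.62) or 2 (0.60). With all libraries thinned to the depth of the shallowest, Bmpr1a (-0.71 and -0.61) and Acvr1 (0.63) also lost their calls. Bmpr2 had only 22 reads in the monocultures, and its 5-day difference ranged from 1.61 to 2.90 over the alternatives.

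The Smads that carry the signal did not pass the test at either time, 0 of 3 tested, and Smad9 had no row. Smad4, the common partner, had means of 201 ± 19.0, 218 ± 32.6 and 275 ± 35.1, with a log2 difference of 0.44 (95% interval 0.06 to 0.83, adjusted p = 0.089) at 5 days. Smad1 and Smad5 had means of 24.5 and 82.5 in monoculture and 30.6 and 65.3 at 5 days, with intervals from -0.35 to 0.97 and from -0.75 to 0.09. The mRNA level does not show how much of these proteins was phosphorylated.

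Besides Smad6, the other listed brakes inside the cell were Smad7, Smurf1 and Smurf2, which encode an inhibitory Smad and ubiquitin ligases that mark Smads and receptors for breakdown. Smurf2 had 113.3, 109.6 and 149.1 in monoculture, 277.3, 204.7 and 269.9 at 3 days and 282.1, 240.3 and 249.7 at 5 days. It was higher at both times, by 1.01 ± 0.19 (adjusted p = 0.0014) and 1.06 ± 0.19 (adjusted p = 0.0007) on the log2 scale. The part of carcinoma cells in this difference was not tested. Smad7, which answers to both BMPs and transforming growth factor beta, had means of 215, 144 and 164 and was not called (3-day interval -1.20 to -0.09, adjusted p = 0.098). Smurf1 was not called either.

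Of 8 tested secreted antagonists and modulators other than Grem1 and Bmper, 0 were higher and 2 lower at 3 days, and 1 was higher and 2 lower at 5 days. Of all tested genes 10.6% were higher and 9.37% lower at 3 days, and 12.6% and 11.4% at 5 days, and nothing is read from these counts. Chrd, which encodes chordin, had 23.5, 18.3 and 16.1 in monoculture, 5.0, 9.7 and 4.2 at 3 days and 4.5, 4.7 and 5.0 at 5 days, log2 differences of -1.53 ± 0.39 (adjusted p = 0.01) and -1.81 ± 0.39 (adjusted p = 0.0028). Fstl3, which encodes a follistatin-like protein that binds activins and some BMPs, was higher at 5 days, with 875.1, 876.4 and 1094.9 against 488.3, 486.4 and 391.4 (1.06 ± 0.17, adjusted p = 0.00026). It was also higher at 5 than at 3 days, by 0.66 ± 0.17 (adjusted p = 0.028). Nbl1, the gene for another cystine-knot antagonist, was lower at 3 days (-0.72, adjusted p = 0.017), and Fstl1, for a secreted follistatin-like glycoprotein, at 5 days (-0.57, adjusted p = 0.025). The 3-day call of Chrd was lost without monoculture replicate 1 (-1.39) and after thinning all libraries to the depth of the shallowest (-1.66), and that of Nbl1 without monoculture replicate 1 (-0.61) or 3-day replicate 3 (-0.57). The call of Fstl1 was lost without monoculture replicate 2 (-0.47) or 3 (-0.59) or 5-day replicate 1 (-0.49). The call of Fstl3 between the co-cultures was lost without any 1 of the 6 co-culture libraries (0.55 to 0.72) and with quantile normalization (0.52).

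**Figure D4:**
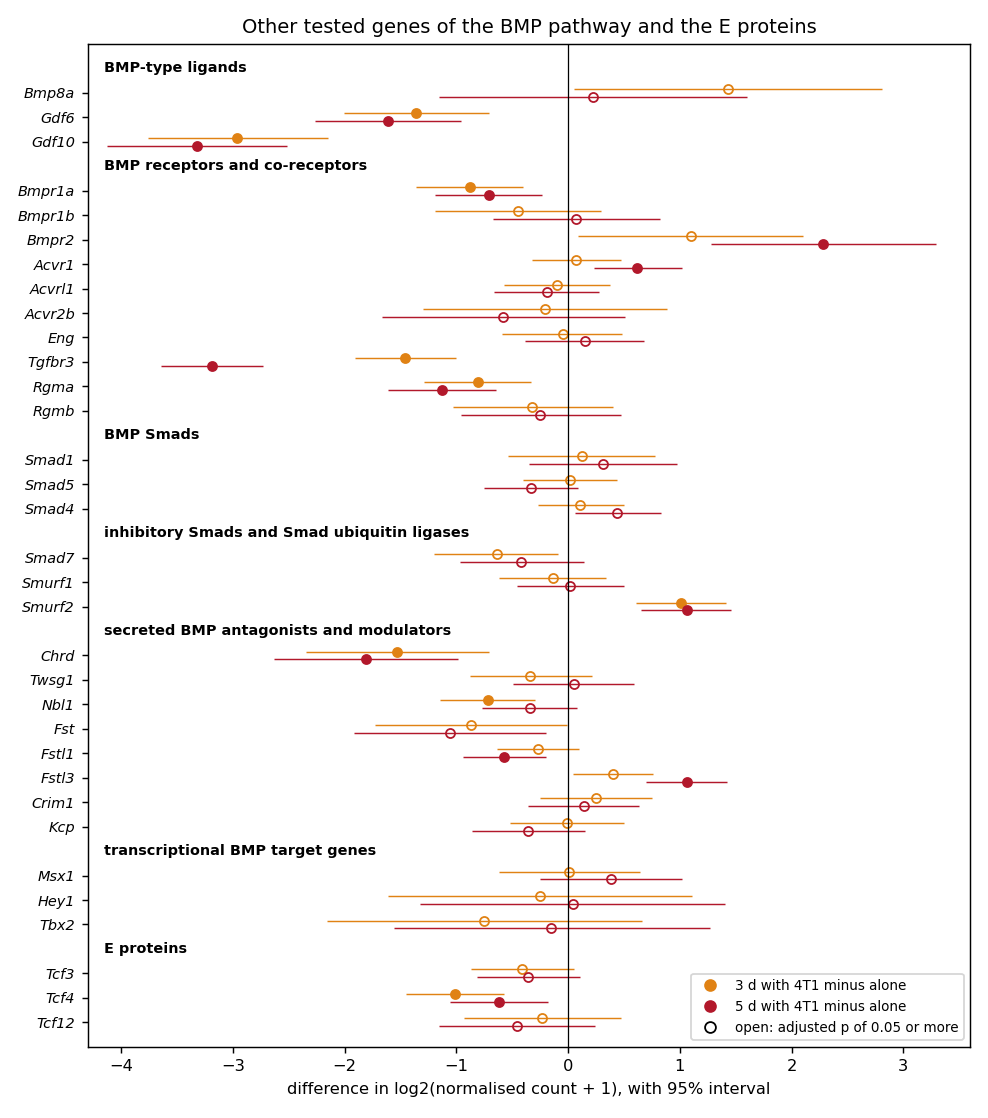
Difference between co-culture and monoculture for the tested genes of the pathway that are not among the 8, grouped by role, with the 3 E protein genes, in log2(normalised count + 1) with 95% intervals. Orange is 3 days, red is 5 days, and filled points passed an adjusted p of 0.05. Gdf10 and Tgfbr3 lie farthest to the left at 5 days, at -3.32 and -3.19, and Bmpr2 farthest to the right, at 2.28.

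Of the 16 genes listed as transcriptional targets, 10 were tested and 6 were called lower at each time. These 6 were the Id genes, Atoh8 and Smad6, so the count repeats the choice described above. None of the other 4, Smad7, Msx1, Hey1 and Tbx2, was called by limma at either time, and none of them had an adjusted p below 0.098 there. Msx1, a homeobox gene that BMPs induce during development, had means of 27.2, 29.0 and 36.1. Hey1 and Tbx2 had means below 5 in each group, where a difference was hard to detect at this depth.

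The E proteins, which Id proteins bind, were tested as 3 genes. Tcf4 had 68.7, 80.3 and 79.1 in monoculture, 38.2, 38.3 and 34.8 at 3 days and 53.0, 48.4 and 46.2 at 5 days, log2 differences of -1.01 ± 0.21 (adjusted p = 0.0025) and -0.62 ± 0.21 (adjusted p = 0.04). The 5-day call was lost in 10 of 21 alternatives, among them the fits without any 1 monoculture library (-0.69 to -0.58), without any 1 of the 5-day libraries (-0.67 to -0.57) and without 3-day replicate 2 (-0.62). Tcf3 and Tcf12 were not called at either time, with log2 differences between -0.46 and -0.23.

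Among 7367 genes with a mean of at least 20, those whose values over the 9 libraries were most like Id1 on the log2(value + 1) scale were Ltbp3 (Pearson r = 0.994), Klf4 (0.98) and Evc2 (0.979). Their monoculture means were 505, 344 and 47.9 and their 3-day means 314, 145 and 29.0. Most like Id3 were Timp2 (0.968), Pgrmc2 (0.965) and Sri (0.955), and most like Grem1 were Jph2 (0.973), Rwdd1 (0.941) and Sesn2 (0.938). The libraries fall into monoculture and co-culture, so for Id1 and Id3 these values mainly describe a shared difference between those groups.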

How the data were processed

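The authors deposited 1 table of counts per gene from 3′ end mRNA libraries, each divided by a factor of its library and rounded (a normalised signal, not raw counts). Per the submitters' processing notes, bcl2fastq, STAR 2.4.2a, HTSeq and mm10 were used. The annotation, strand setting, gene filter and scaling method are not given in the sources used here. Each library's low values were whole multiples of 1 step, so whole reads were recovered, and 99.81% to 99.97% of values came out whole within 0.051. Reads carry no stated molecular identifiers, so intervals on them cover counting error only. Columns were matched to samples by name, except that 1 with no mention of 4T1 was taken as 5-day co-culture replicate 2 and 1 with a shortened name as monoculture replicate 3, each being the sample without another column.

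limma 3.58.1 in R 4.3.3 (lmFit, eBayes with trend) was run on log2(value + 1) for all 9 libraries and 10639 genes, two-sided, with Benjamini-Hochberg adjustment over all of them and a threshold of 0.05. "Called" means an adjusted p below that threshold. Alternatives were other pseudocounts (0.5 and 5), filters, scalings, a replicate block, fits of the compared groups alone, edgeR 4.0.16 (quasi-likelihood) and DESeq2 1.42.0 on recovered reads, and each library left out. Thinning to the shallowest library was added after seeing the data.

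The genes and lists were chosen with earlier results of these data known. Named were the 9 genes, up to 4 called genes per list and comparison by adjusted p (otherwise the highest), the 3 genes most like Id1, Id3 and Grem1 and the 2 highest of each marker list; a few others were named after their values were seen. One listed gene is not reported here and was left out of the list counts. Positions are from GENCODE M21.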

Additional observations from a re-analysis of the deposited data

Results flagged for a closer look

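In 3 genes of the BMP lists the 5-day co-cultures differed from the 3-day co-cultures in limma. These were 1 of the 8 genes, called lower, and 1 lower and 1 higher of the 30 others. Over all tested genes 3.71% were called lower and 3.2% higher, so nothing is read from this count. Without a 3-day monoculture, time in culture and time with 4T1 cells cannot be told apart in the difference between the co-cultures. For Tgfbr3 the 5-day minus 3-day difference was -1.73 on the log2 scale (adjusted p = 0.00018), all 3 libraries lay below all 3 at 3 days, and it kept its call in all 21 alternatives. Fstl3 was 0.66 higher at 5 days (adjusted p = 0.028), in 3 of 3 libraries above all at 3 days. That call was lost in 7 of 21 alternatives. For Id4 the difference was -1.65, with all 3 libraries below all at 3 days. It rests on 14 reads at 3 days and 4 at 5 days, and its call was lost in 9 of 21. Groups of 3 libraries are too small for a search for single outlying ones.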

How the results depend on the processing

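The 6 genes called lower at 3 and at 5 days against monoculture kept direction and call in all 21 alternatives, which describes the processing and adds no support, since the same libraries were in view when the genes were chosen, with Id1 between -3.24 and -3.06 at 3 days and Id4 between -6.60 and -4.39 at 5 days. Between the co-cultures Id1 ranged from -0.17 to 0.06 with 1 library left out and changed sign, at 0.01 without 3-day replicate 3 and 0.06 without 5-day replicate 2. The 735 genes called between the co-cultures ranged from 323 to 739 with 1 library left out, with 323 without 3-day replicate 2, and 442, 426 and 458 without 5-day replicates 1, 2 and 3; the cause was not tested. Leaving out 1 library gave 1534 to 2132 genes at 3 days and 1935 to 2759 at 5 days, against 2129 and 2552. The count test of edgeR on recovered reads called 2239, 2736 and 677 genes. A replicate block gave 2219, 2663 and 827 genes and, for Id1, -3.15 and -3.20, and it ended the 5-day call of Tcf4 (-0.62). Only 4 of 9 same-numbered pairs correlated above 0.1, with r from -0.11 to 0.23, beside -0.3 to 0.32 for pairs with unlike numbers. With 3 libraries per group these correlations cannot decide whether libraries were paired. No pairing was used in the main fit, and whether the numbers mark shared animals or cultures is not known. Of 23 called results on other pathway genes and the E protein gene Tcf4, 14 kept their call throughout. No rescaling moved the median log2 difference of all genes by more than 0.019. Low reads limit Id4, Atoh8 and Smad6 in co-culture and Bmpr2 in monoculture. They also limit Chrd in co-culture, with 20 reads at 3 days and 14 at 5 days. Its 5-day difference ranged from -3.09 to -1.31 over the alternatives.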
